A study of Mus musculus with 20 samples.

Results

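The cytosolic ribosomal protein genes encode the proteins that, together with ribosomal RNA, make up the ribosome of the cytosol. They were chosen by name from the gene counts of 20 mouse cortex libraries. A gene was a member if its symbol was Rpl or Rps followed by a number and the usual suffixes, or was Rpsa, Rplp0, Rplp1 or Rplp2. The rule found 85 of 23413 gene names. Of these, 43 were large subunit genes, 31 were small subunit genes, 3 were genes of the stalk of the large subunit (Rplp0, Rplp1 and Rplp2) and 8 were paralogues, that is, related copies such as Rpl3l and Rps27l. The rule left out 17 names with the same start, which were S6 kinase genes, pseudogene names ending in -ps and Rps19bp1. Fau, whose product is made as a fusion of a ribosomal protein with a ubiquitin-like protein, lies outside the rule, as do the 73 genes of the mitochondrial ribosome.

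All mice were APOE4KI, a knock-in that carries human APOE4 in place of mouse Apoe, so that no group without it was compared. They were bred in house, housed singly and given equal calories as the control diet (CD, named SD in the sample labels) or as the very low carbohydrate, ketogenic one (KD). The diets began at 10 months of age and lasted 12 months, and the mice were 22 months old and fasted when tissue was taken. Among females 5 received the CD and 4 the KD, and among males 5 received the CD and 6 the KD, with 1 total RNA library of cortex per mouse. P-values therefore measure the spread between mice. Library numbers fell into 2 series of 10 libraries, and every group had libraries in both. Counts per library were 21015275 to 29109990 in series 1 and 12207161 to 17697342 in series 2.

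The labels were checked in the counts before the members were examined. Levels are given as CPM, the count of a gene scaled to a common library total. Mouse Apoe was at 1.33 to 3.34 CPM in all libraries. Xist was at 319 CPM or above in each female and at most 7.59 CPM in each male. The Y-linked gene Ddx3y was at 164 to 241 CPM in the males and at most 1.64 CPM in the females, except for CD female E228, where it was at 14.0 CPM. Markers of neighbouring brain regions also differed between the libraries. The 13 striatal markers summed to 3047 CPM in KD female E61, 2747 CPM in KD female E68, 3514 CPM in KD female E207 and 1289 CPM in CD female E249, against 404 to 498 CPM in the other 5 females. The 10 markers of cortical excitatory neurons summed to 1376 to 1670 CPM in those 4 libraries and to 3055 to 3341 CPM in the other females. In KD male E59 the striatal markers summed to 4321 CPM and the choroid plexus markers to 2387 CPM. In KD male E64 the 7 hippocampal markers summed to 495 CPM, against at most 261 CPM in any other library, and the 8 oligodendrocyte markers to 1371 CPM, the lowest of the 20 libraries.

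Ribosomal proteins are made in near-equal amounts, because a ribosome holds most of them in single copy. Their messages carry a terminal oligopyrimidine (TOP) tract, a run of C and T bases that begins at the cap, through which mTORC1 signalling adjusts their translation to nutrient supply. Neurons place part of these messages and of the ribosomes in their dendrites and axons, where proteins are made close to synapses.

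The bases around the annotated start of transcription are shown for 6 members that the results below turn on, because the TOP tract is read from the DNA at that point. Each window is 30 bases of RefSeq's GRCm38.p6 promoter entries, written 5′ to 3′ on the strand of the gene with 15 bases before the start. Capitals mark an unbroken run of at least 5 pyrimidines that includes the annotated start base, and a window without capitals has no such run. Rplp2 (chr7:141447636-141447665, + strand) and Rps18 (chr17:33955651-33955680, - strand) were among the members that followed the others most closely. Rps6 (chr4:86857353-86857382, - strand) and Rpl10 (chrX:74270801-74270830, + strand) are named in the diet comparison of females. Rpl22l1 (chr3:28805493-28805522, + strand) and Rps27l (chr9:66946071-66946100, + strand, the first of 2 entries) moved against the others. These 6 windows are examples and do not show a link of the run with such movement. Among tested members with a window, 4 of the 18 with a run had a correlation below 0 with the others, as did 4 of the 40 without.
Rplp2: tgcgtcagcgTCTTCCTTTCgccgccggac
Rps18: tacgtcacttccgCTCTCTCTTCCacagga
Rps6: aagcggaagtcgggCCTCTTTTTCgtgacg
Rpl10: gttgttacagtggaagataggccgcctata
Rpl22l1: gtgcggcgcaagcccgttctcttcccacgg
Rps27l: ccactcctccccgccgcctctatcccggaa

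Promoter entries matched 64 of the 85 members, in 76 windows of 300 bases. A run of at least 5 pyrimidines over the annotated start was found in 20 member windows (26.3%) and in 3330 of all 32851 windows (10.1%). The motif GGAAG, on either strand, was in 93.4% of member windows and 71.4% of all windows. ATGGCG was in 31.6% against 8.93%, CTTTCC in 50.0% against 26.6%, and TATAAA in 9.21% against 13.6%. Each motif was searched on both strands, and no motif contains another. These shares describe sequence only.

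The members held a small and narrow share of the counts. Their summed share was 0.818% ± 0.083 (SD, n = 20) of a library and ranged from 0.699% in CD female E249 to 0.994% in KD male E64. Exact (Clopper-Pearson) 95% intervals of these shares were at most 0.00942 percentage points wide, so that counting error was small beside the spread between mice. Such intervals cover counting error only. Of the 85 members, 78 passed the filter on low counts and were tested, and 8 were among the 1000 most abundant genes by CPM. In bulk tissue, fewer cells of a type and less RNA per cell cannot be told apart.

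Levels of different genes were compared as CPM per kilobase of the principal annotated transcript. Rpl9, a large subunit protein, was highest at 367 ± 45.5 CPM per kb (SD, n = 20). It was followed by Rps21 at 327 ± 45.5, Rpl4 at 284 ± 24.8, Rpl7 at 258 ± 20.3 and Rps4x, the X-linked small subunit gene, at 242 ± 24.5 CPM per kb. The ranges of neighbours in this order overlapped. The median of the tested members was 102 CPM per kb. Among tested genes of the subunits and stalk, the highest level was 35.2 times the lowest, which was that of Rpl18 at 10.5 CPM per kb. This rank and ratio rest on the 2989-base transcript used for Rpl18, whose mean of 31.2 CPM was above the 6.84 CPM of Rpl36. The 5 lowest tested members were Rpl36 (17.9 CPM per kb), Rpl7l1 (17.4), Rps16 (13.0), Rpl18 and Rps4y2 (3.17). Of the 85 members, 82 share at least 1 stretch of 50 bases with annotated genes elsewhere in the genome, many of them pseudogenes, and in 31 of the 78 tested members over 50% of these 50-base words are shared. How such reads were assigned was not tested. Rpl9, the highest member, had 93.3% of its 50-base words in other genes. Across the 78 tested members the Spearman correlation of the shared percentage with the level per kb was 0.18, as a description across genes.

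**Figure D1:**
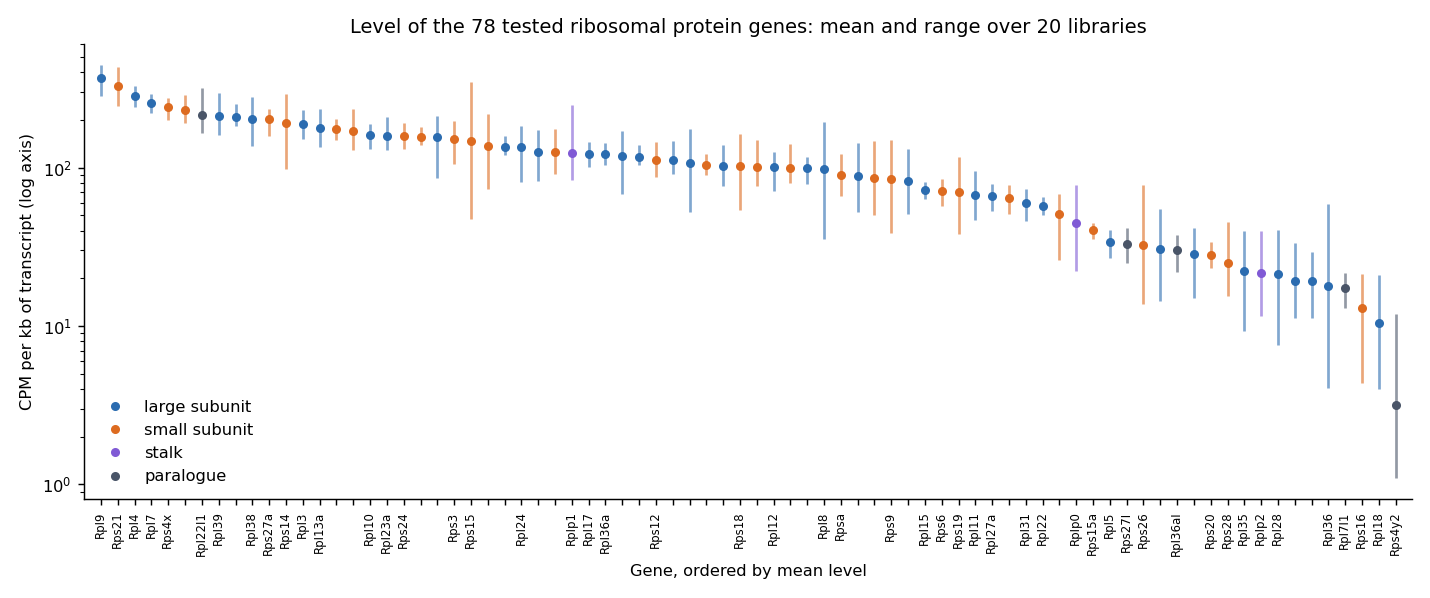
Mean level of each of the 78 tested members (points) and the range over 20 libraries (lines), in CPM per kb of transcript on a log axis, coloured by role, with the genes named in the text labelled. Levels run from 367 CPM per kb for Rpl9 to 3.17 CPM per kb for Rps4y2, and Rps15, Rpl8 and Rpl36 have among the longest ranges.

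Among the genes of the stalk, which recruits translation factors to the ribosome, Rplp1 was at 125 ± 38.1 CPM per kb, Rplp0 at 44.9 ± 12.8 and Rplp2 at 21.5 ± 6.77 (SD, n = 20). Per kb Rplp1 was highest of the 3 in its mean, and Rplp0 and Rplp2 overlapped in their ranges. In CPM Rplp1 and Rplp0 were close, at means of 62.15 and 60.99, and Rplp2 was lower at 20.71. The gap per kb between Rplp1 and Rplp0 therefore rests on the transcripts used, of 499 and 1358 bases. Rpl5 (33.9 ± 3.83 CPM per kb) and Rpl11 (66.9 ± 13.2), which bind the smallest ribosomal RNA of the large subunit and can hold back the p53 ligase Mdm2, did not overlap, since the highest Rpl5 value was 40.3 and the lowest Rpl11 value 46.8 CPM per kb. In CPM the order was the reverse, at means of 69.3 for Rpl5 and 55.7 for Rpl11. The order per kb therefore rests on the transcripts used, of 2045 and 833 bases. Among small subunit genes, Rps3, which sits at the entry of the message, was at 151 ± 24.8, Rpsa at 89.9 ± 15, Rps6, the target of the S6 kinases, at 70.8 ± 7.18 and Rps27a, a ubiquitin fusion, at 203 ± 22.3 CPM per kb. Rpl38 was at 204 ± 38.5, Rpl13a at 178 ± 27.5, Rps14 at 192 ± 52.1 and Rpl17 at 123 ± 12.6 CPM per kb.

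Rpl26, Rpl30, Rps27 and Rpl34 were listed at or near 0 in every library. Rpl26 had 0 counts in all 20 libraries, Rpl30 had 11 counts in all, Rps27 had 33 and Rpl34 had 39, with no library above 6 counts. A library's level that corresponds to 3 counts was between 0.103 and 0.246 CPM. Their proteins are part of every cytosolic ribosome, so these genes are given only as listed at these counts. The percentage of 50-base words found elsewhere was 61% for Rpl26, 29.7% for Rpl30, 37.9% for Rpl34 and 98.6% for Rps27. Its median over the tested members was 43.5%. The reason for the low counts was not tested.

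Paralogues were compared with the gene they resemble. Rpl3l, the copy used in heart and skeletal muscle, had 88 counts in total and at most 13 in a library, against a mean of 255 CPM for Rpl3. Rpl10l, a testis copy, had 1 count, and Rpl39l, also known from testis, had 30 counts. Rpl22l1 and Rpl22 had like counts, at means of 119.6 and 118 CPM. Per kb Rpl22l1 was at 217 ± 42.2 (SD, n = 20) and Rpl22 at 57.5 ± 5.22 CPM per kb, a gap that comes from the lengths of the transcripts used, 552 and 2051 bases, and would change with another choice of transcript. Rpl36al (30.3 ± 4.30 CPM per kb) was below Rpl36a (122 ± 10.3), and Rpl7l1 (17.4 ± 2.20) was below Rpl7 (258 ± 20.3), without overlap per kb in either pair. In CPM the means were 38.6 for Rpl36al and 59.2 for Rpl36a. The size of their gap per kb thus rests in part on the transcripts used, of 1276 and 483 bases. Rps27l, a p53-induced gene, was at 32.7 ± 4.55 CPM per kb, whereas its partner Rps27 was among the genes listed near 0. Rps4y2, which the annotation lists as Rps4l, a transcribed processed pseudogene on chromosome 6, was at 2.99 CPM, against 236 CPM for Rps4x.

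Most members varied together between mice. After the group means were removed from log2 CPM, the median Pearson r of the 3003 pairs of tested members was 0.50 over the 20 libraries, and 78.8% of pairs were positive. The median r of a member with the mean of the other members was 0.82, and 58 of 78 members had an r above 0.5. The first principal component held 59.6% of the members' variance. The means of the large and small subunit genes followed each other with r = 0.99 and rho = 0.98. The members of a pair are read from the same libraries and so share each library's depth and composition, and no test was made of these values. Within series 1 the median r with the other members was 0.92, and within series 2 it was 0.84, each over 10 libraries.

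Rplp2 (r = 0.97) and Rps18 (0.97) were among the closest followers, and Rplp0 had an r of 0.96. Rplp0 ranged from 30.2 CPM in CD female E249 to 106 CPM in KD male E64. In CD females Rplp0 was at 62.9 CPM (E62), 56.1 (E67), 30.2 (E249), 42.2 (E265) and 66.1 (E228), and in KD females at 75.5 (E61), 42.8 (E68), 48.7 (E207) and 72.8 (E227). The groups overlapped, and within each diet the mice differed by more than the diets did. KD male E64 had the highest value of all 20 libraries in 42 of 78 members, and KD female E61 in 13. CD female E249 had the lowest in 35.

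An r below 0 with the others was found for 11 of 78 members. They were the paralogues Rps27l (r = -0.65) and Rpl22l1 (-0.63), the large subunit genes Rpl39 (-0.59), Rpl15 (-0.54), Rpl7 (-0.34), Rpl27a (-0.33) and Rpl5 (-0.32), and the small subunit genes Rps4x (-0.57), Rps27a (-0.48), Rps24 (-0.45) and Rps20 (-0.05). The sign did not hold in every setting for Rps20, with an r of 0.21 after group and series means were removed and 0.50 within series 1, or for Rps27a, with 0.33 within series 1. Some members with an r above 0 were below 0 within series 2. They were Rpl23a (0.41 and -0.39), Rps13 (0.35 and -0.12), Rpl36a (0.28 and -0.04) and Rpl31 (0.47 and -0.006). Rpl22l1 was highest in CD females E249 (176 CPM) and E265 (162 CPM), the 2 libraries in which the mean member level was lowest, and lowest in CD male E51 (91.0 CPM). Among tested members with a promoter window, the median r was 0.82 for the 18 with a pyrimidine run over the start and 0.78 for the 40 without. Of those with a run 4 had an r below 0, and of those without 4 did. A member's r was not higher where its level was higher (Spearman rho of r with mean CPM -0.36 over 78 members). CVs of the tested members ran from 6.25% for Rps15a to 74.4% for Rps4y2, with a median of 15.8%, and the median CV of all tested genes was 22.8%. Among the subunit genes, Rpl36 (70.6%), Rps15 (47.2%) and Rps26 (45.8%) had among the highest CVs.

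**Figure D2:**
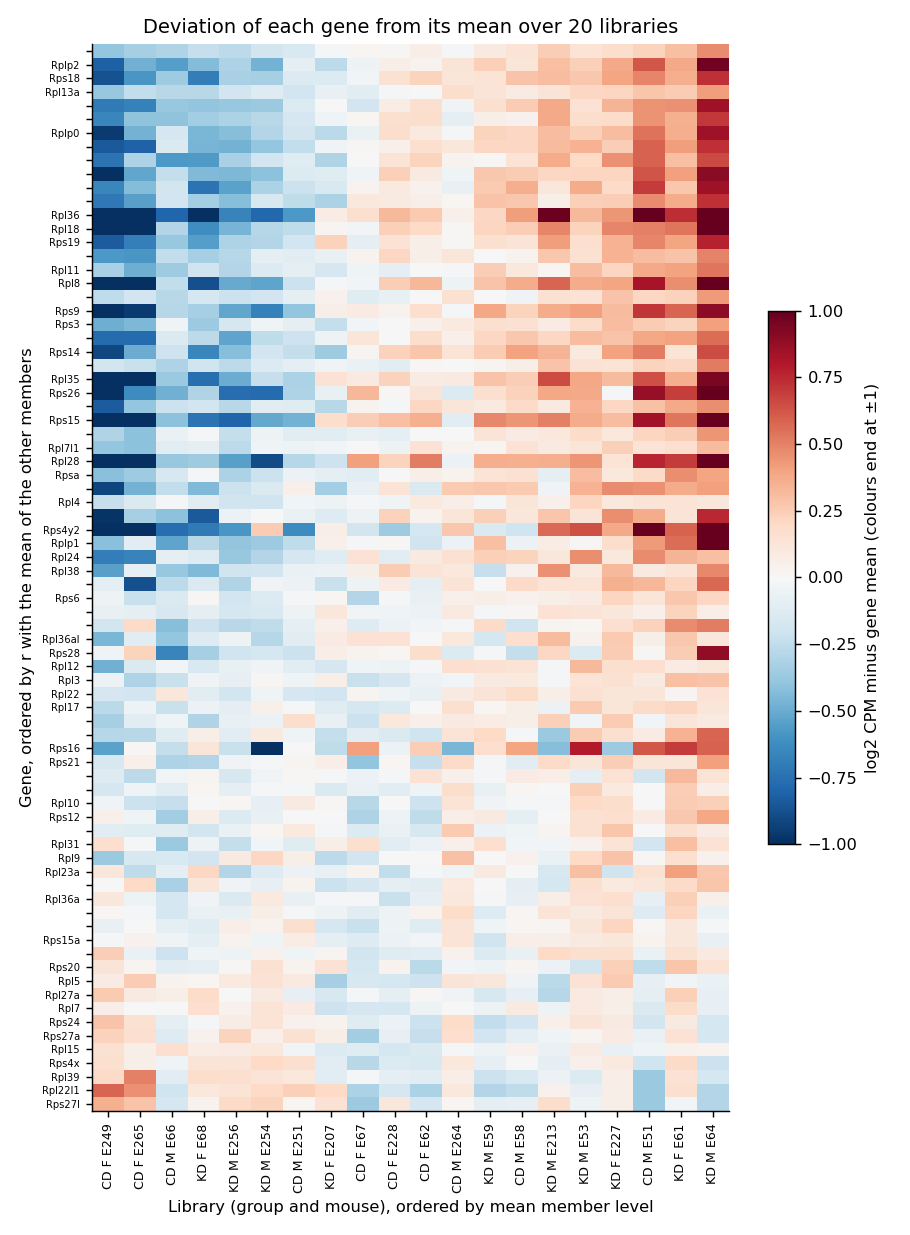
Log2 CPM of each of the 78 tested members minus its mean over 20 libraries. Libraries run from left to right by mean member level, from CD female E249 to KD male E64, and genes from top to bottom by falling r with the other members, ending with Rps27l (-0.65), and the genes named in the text are labelled, so that the upper genes turn from blue to red and the lowest 11 run weakly the other way.

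The order of the libraries was shared with a large part of the transcriptome. Of the 15582 other genes tested, 32.9% had an r above 0.5 with the mean of the members, and the median was 0.13. The r of these genes followed the base composition of their transcripts. Its median was -0.54 in the 3549 genes with a GC content up to 45%, -0.14 from 45 to 50%, 0.45 from 50 to 55% and 0.75 above 55% (3751 genes). Spearman's rho of GC content with r was 0.79 across 15444 other genes and 0.59 across the 78 members, where genes are not independent points. The median GC content was 52.9% in the 58 members with r above 0.5 and 45.8% in the 11 with r below 0. When the median deviation of genes of like GC content was removed from each library, the median r of a member with the others was 0.71, 52 members were above 0.5, and the percentage of other genes above 0.5 fell from 32.9 to 10.0. What set the difference between libraries was not tested. The mean member level was higher in libraries with more counts (r = 0.56, rho = 0.55, n = 20; r = 0.42 within series 1 and 0.70 within series 2), and without the 2 totals farthest from the median r was 0.37 over all libraries, 0.55 in series 1 and 0.28 in series 2, so that the relation in series 2 rests on those libraries.

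**Figure D3:**
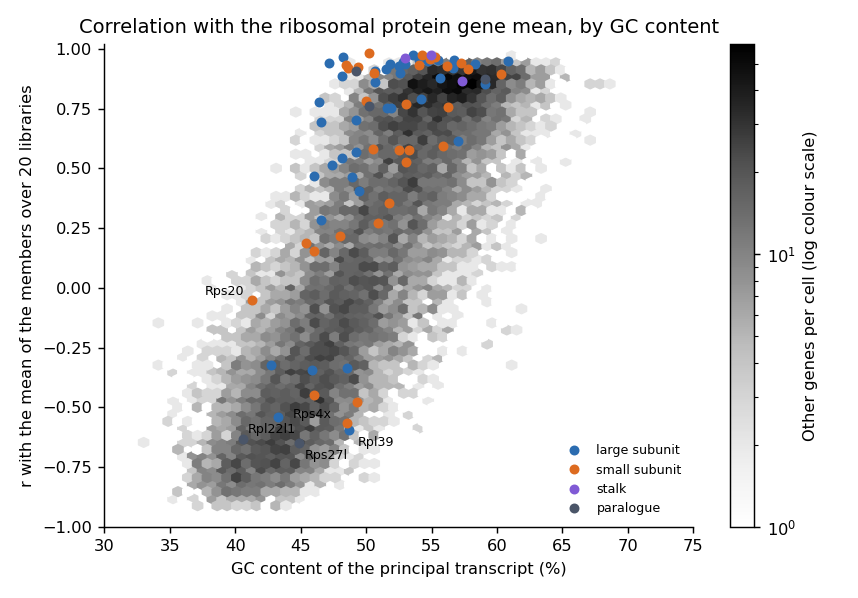
Pearson r over 20 libraries with the mean of the members (vertical axis; for a member, the mean of the other members) against the GC content of the principal transcript in percent. Grey cells count other genes on a log colour scale and points are the 78 members; r rises with GC content in both, and Rps27l and Rpl22l1 lie at the bottom.

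Outside the members, the 5 genes with the highest r with the member mean, after group and series means were removed, were Gnai2 (0.97), Clu (0.97), R3hcc1 (0.97), Os9 (0.96) and Agap3 (0.96), over 20 libraries. Gnai2 encodes an inhibitory G protein subunit and Clu the chaperone clusterin. Cdc27 (-0.95), a part of the anaphase-promoting complex, and Pank3 (-0.95), a pantothenate kinase, had the lowest r. Among related gene lists, with only the group means removed, Fau had an r of 0.93, within the range of the members themselves. The median r was 0.58 for the 73 mitochondrial ribosomal protein genes, 0.66 for 37 genes of ribosome biogenesis, 0.71 for 20 cytosolic tRNA synthetase genes, 0.64 for 24 genes of mTORC1 signalling and 0.38 for 21 other genes with TOP transcripts, most of them translation factors, where Gnb2l1, the ribosome-bound scaffold RACK1, had 0.96 and Eif3e -0.74. Of the marker lists, microglia had a median of 0.67, cortical excitatory neurons 0.28, astrocytes -0.10 and striatum -0.17. With the series means removed as well, the medians were 0.51 for mitochondrial ribosomal protein genes, 0.61 for biogenesis, 0.24 for the other TOP genes, 0.40 for excitatory neurons, -0.25 for astrocytes and -0.33 for striatum.

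The effect of the KD was examined in females first. In the mean member log2 CPM, CD females were at 6.21 (E62), 6.14 (E67), 5.80 (E249), 5.89 (E265) and 6.21 (E228), and KD females at 6.49 (E61), 5.97 (E68), 6.13 (E207) and 6.402 (E227). E61 and E227 were above every CD female, and E68 and E207 lay within the CD range, so that the groups overlapped. The group means were 6.05 ± 0.19 (SD, n = 5) and 6.25 ± 0.24 (SD, n = 4). Scaling by upper-quartile library sizes put the difference of means at 0.14 in place of 0.20.

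**Figure D4:**
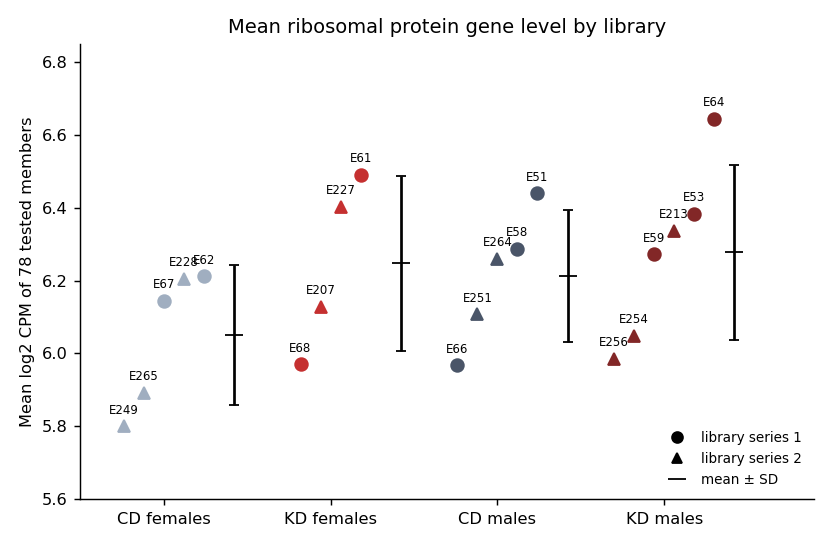
Mean log2 CPM of the 78 tested members in each mouse by group, with the mean and SD of each group beside the points; circles are library series 1 and triangles series 2. KD females E61 and E227 lie above the CD females, E68 and E207 do not, and KD male E64 is the highest library at 6.64.

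At an FDR of 0.1 in edgeR's quasi-likelihood test across 15660 genes, 0 members were called between KD and CD females, where 0.0511% of all genes tested were called. At an unadjusted p under 0.05, 3 members were higher on the KD and 0 lower, and of all genes tested 5.86% were higher and 5.5% lower. The members' median log2 fold change was 0.11, with 66 of 78 above 0, against a median of 0.01 over all genes tested, of which 52.7% were above 0. Most members varied together between libraries, so that these are not 78 independent signs. By role the medians were 0.10 for the large subunit, 0.12 for the small subunit and 0.20 for the stalk. DESeq2's Wald test also called 0 members, against 2.24% of all genes. The count at an FDR of 0.1 was 1 in edgeR without CD female E249 (Rpl3, log2 fold change 0.25, adjusted p = 0.0687 in edgeR) and 1 with 2 factors of unwanted variation (Rps9, log2 fold change 0.32). In those fits 9.09% and 2.89% of all genes were called, against 1.28% of the members in each. The median was 0.05 without KD female E227, 0.07 without KD female E61, 0.08 without CD female E249 and 0.20 without KD female E68, and it was 0.16 without CD female E228. Within library series 1 alone it was 0.05 and within series 2 alone 0.18.

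The 3 members were Rpl3, Rpl10 and Rps6. Rpl3, which lies near the peptidyl transferase centre (chromosome 15, 80077791 to 80091868, GRCm38), was at 243 (E62), 218 (E67), 244 (E249), 205 (E265) and 226 CPM (E228) in CD females. In KD females it was at 313 (E61), 247 (E68), 264.3 (E207) and 282 CPM (E227). The groups did not overlap, although E68 was only just above E249. The log2 fold change was 0.22 ± 0.08 (SE), with an adjusted p of 0.281 in edgeR, and the exact two-sided permutation test on log2 CPM gave p = 0.00794, the smallest that 126 divisions of 9 mice allow. Rpl10, which is needed for the joining of the subunits, was at 118 (E62), 112 (E67), 132 (E249), 117 (E265) and 135 CPM (E228) in CD females. It was at 162 (E61), 136 (E68), 137 (E207) and 153 CPM (E227) in KD females. Its log2 fold change was 0.21 ± 0.08 (adjusted p = 0.348 in edgeR; exact permutation p = 0.0159). Rps6 was at 58.7 (E62), 50.6 (E67), 59.7 (E249), 53.1 (E265) and 61.3 CPM (E228) in CD females. It was at 74.5 (E61), 62.5 (E68), 62.6 (E207) and 71.9 CPM (E227) in KD females. Its log2 fold change was 0.20 ± 0.08 (adjusted p = 0.354 in edgeR; exact permutation p = 0.0159). These 3 were picked for their small p among 78, and the exact values are not adjusted for that. They were also the members whose KD and CD females did not overlap, 3 with the KD higher and 0 with the KD lower, where 1.7% of all genes tested had the KD females wholly higher and 0.402% wholly lower.

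**Figure D5:**
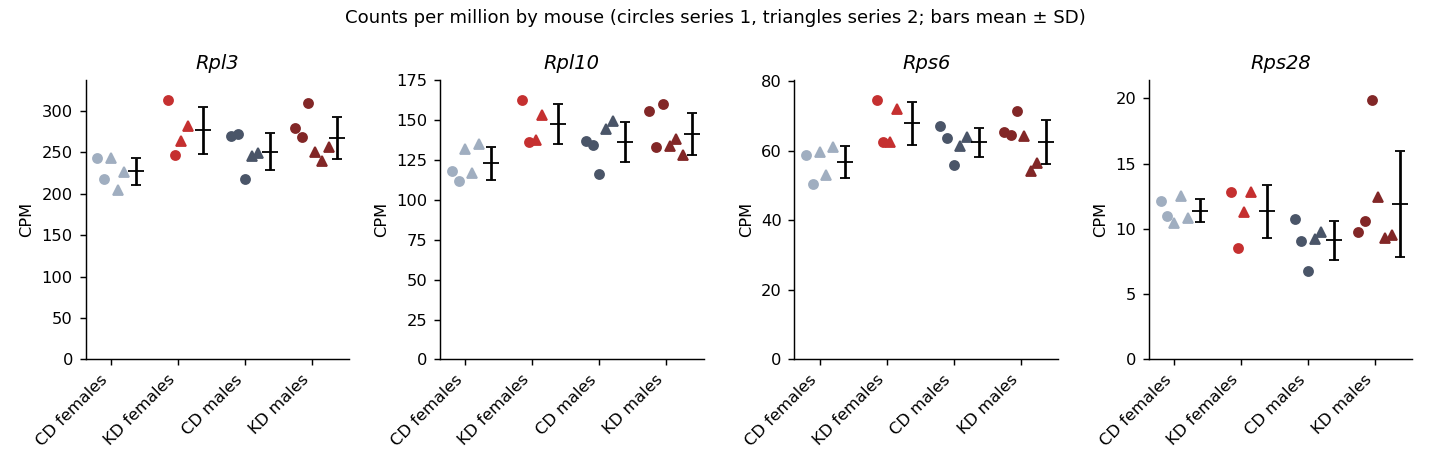
CPM of Rpl3, Rpl10, Rps6 and Rps28 in each mouse by group, on axes that start at 0, with the mean and SD of each group beside the points. Rpl3, Rpl10 and Rps6 do not overlap between CD and KD females and overlap between CD and KD males, and for Rps28 the KD male E64 lies at 19.8 CPM.

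Among the 12 members below 0 in the fit, those with the smallest p were Rpl39 (log2 fold change -0.07 ± 0.13), Rps16 (-0.10 ± 0.24) and Rpl15 (-0.04 ± 0.10), with adjusted p of 0.918, 0.945 and 0.951 in edgeR. The direction of Rps16 and Rpl15 was the opposite in the group means without the fit, at 14.7 CPM on the KD and 14.0 CPM on the CD for Rps16 and at 136 and 134 CPM for Rpl15. The stalk genes were at 0.15 ± 0.22 (Rplp0), 0.20 ± 0.22 (Rplp1) and 0.20 ± 0.25 (Rplp2), and Rpl11 at 0.18 ± 0.13. Each of these 4 values was under 1.5 SE from 0. In the same comparison all 13 striatal markers were above 0, with a median log2 fold change of 1.84. All 10 markers of cortical excitatory neurons were below 0 (median -0.89) and all 10 microglial markers above 0 (median 0.42). At an unadjusted p under 0.05 there were 9 striatal, 7 cortical and 5 microglial markers. Also above 0 were all 8 oligodendrocyte markers (median 0.27), all 4 of oligodendrocyte precursors (0.38) and 7 of 8 astrocyte markers (0.19). Of the 7 hippocampal markers 4 were above 0 and 3 below (median 0.54), with 2 higher and 1 lower at an unadjusted p under 0.05. Of the markers in these lists, 0 passed an FDR of 0.1. Their part in the members' values was not tested. Among the KD females, the mean member level was highest in E61 (striatal markers at 3047 CPM) and E227 (491 CPM) and lower in E68 (2747 CPM) and E207 (3514 CPM).

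In males, the mean member log2 CPM was 6.44 (E51), 6.29 (E58), 5.97 (E66), 6.11 (E251) and 6.26 (E264) on the CD. On the KD it ranged from 5.98 to 6.64 with a median of 6.30 over 6 mice. The groups overlapped, with means of 6.21 ± 0.18 (SD, n = 5) and 6.28 ± 0.24 (SD, n = 6). In edgeR 0 members were called at an FDR of 0.1, as were 0 of all genes tested (0%), and DESeq2's Wald test called 0 members. At an unadjusted p under 0.05, 1 member was higher and 0 lower, and of all genes tested 2.37% were higher and 1.19% lower. The median log2 fold change was 0.05, with 59 of 78 above 0, against -0.003 over all genes tested, of which 49.1% were above 0. It was 0.004 without KD male E64, 0.01 without CD male E66, 0.10 without KD male E256 and 0.08 without CD male E51 or CD male E264, and it was 0.15 in library series 1 alone and -0.05 in series 2 alone, so that the direction did not hold within both series. No member had KD males wholly above or below CD males, and of all genes tested 0.102% and 0.115% did.

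The 1 member was Rps28, a small subunit protein beside the exit of the message. It was at 10.8 (E51), 9.10 (E58), 6.77 (E66), 9.23 (E251) and 9.77 CPM (E264) on the CD, and at 9.34 to 19.8 CPM, with a median of 10.2, on the KD. The highest value was that of E64, and the groups overlapped. The log2 fold change was 0.37 ± 0.17 (adjusted p above 0.99 in edgeR; exact permutation p = 0.141 over 462 divisions), and it was 0.16 without KD male E64 and 0.14 in series 2 alone. The other named members of smallest p were Rps4y2 (0.62 ± 0.39) and Rpl31 (0.13 ± 0.09) above 0, and Rps15a (-0.09 ± 0.07), Rpl4 (-0.06 ± 0.07) and Rps27a (-0.06 ± 0.09) below 0. Rps4y2 was at 0.13 without KD male E64 and at 0.95 without CD male E51. Rpl3 was at 0.08 ± 0.07, Rpl10 at 0.04 ± 0.08 and Rps6 at -0.01 ± 0.07 in males. Among choroid plexus markers, whose sum was 2387 CPM in E59 and at most 63.4 CPM in every other library, all 7 tested were above 0 (median 1.95). All 13 striatal markers were above 0 (median 1.15) with 0 at an unadjusted p under 0.05, 6 of 7 hippocampal markers were above 0 (median 0.87) with 4 at an unadjusted p under 0.05, and all 8 oligodendrocyte markers were below 0 (median -0.37). Their part in the members' values was not tested, and without E59 the members' median was 0.07. E64, whose hippocampal markers were highest and oligodendrocyte markers lowest, was also the library without which that median was 0.004.

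Whether the response differed between the sexes was tested as the interaction. In edgeR 0 members and 0% of all genes were called at an FDR of 0.1. The interaction is the log2 fold change in females minus that in males, so its sign does not give the size of either. At an unadjusted p under 0.05, 0 members were called in either direction, where the interaction was above 0 in 1.09% of all genes and below 0 in 1.05%. The smallest p among members was that of Rps6, at 0.21 ± 0.11 (adjusted p above 0.99 in edgeR). A difference between the sexes in the response of the members was thus not detectable with these mice, which does not show that the sexes responded alike.

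Over both sexes, 0 members were called at an FDR of 0.1 in edgeR, where 0.37% of all genes were called. At an unadjusted p under 0.05, 3 members were higher (Rpl3, Rpl10 and Rps12) and 0 lower, where 7.41% of all genes tested were higher and 6.44% lower. The median log2 fold change was 0.10, with 70 of 78 above 0, against 0.01 over all genes tested, of which 51.5% were above 0. In edgeR Rpl3 was at 0.15 ± 0.05 (adjusted p = 0.198), Rpl10 at 0.12 ± 0.06 (adjusted p = 0.335) and Rps12 at 0.15 ± 0.07 (adjusted p = 0.359). The direction of Rpl10 and Rps12 did not hold within both library series. In series 2 alone Rpl10 was at -0.01 and Rps12 at -0.03, and in series 1 alone they were at 0.25 and 0.34, where Rps12 was called. DESeq2's Wald test called Rpl3 (adjusted p = 0.0680), as did the edgeR fit without CD female E249 (adjusted p = 0.0621). With 2 factors of unwanted variation in place of the series term, 6 members were called, all higher (Rpl18, Rps9, Rps19, Rpl35, Rps15 and Rpl3, log2 fold changes 0.14 to 0.26). That was 7.69% of the members, and the same fit called 6.53% of all genes. Of all genes, DESeq2's test called 4.54%, the fit without E249 10.7% and the fit of series 1 alone, with 2 members called, 7.53%. In the main fit all 13 striatal markers (median 1.55), all 10 microglial (0.24) and all 7 choroid plexus markers tested (1.49) were above 0. All 10 markers of cortical excitatory neurons were below 0 (median -0.56). At an unadjusted p under 0.05 there were 11 striatal, 5 microglial, 2 choroid plexus and 6 cortical markers, and 0 of these lists passed an FDR of 0.1. Of the 7 hippocampal markers 4 were above 0 and 3 below (median 1.27). At an unadjusted p under 0.05, 4 of them were higher and 1 lower, and 1, higher on the KD, passed an FDR of 0.1. The part of all these markers in the members' values was not tested.

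Related genes of the same machinery were counted in the comparison of females. Of the 73 mitochondrial ribosomal protein genes, 46 were above 0 with a median of 0.03. Of the 21 other genes with TOP transcripts, which include the noncoding Gas5 and Snhg1, 17 were above 0 (median 0.05), of 37 biogenesis genes 18 (median -0.02), of 24 mTORC1 genes 10 (median -0.03) and of 20 tRNA synthetases 9 (median -0.02). In these lists 0 genes passed an FDR of 0.1 in edgeR, and at an unadjusted p under 0.05 there were 1 gene of these 21 and 1 synthetase above 0 and 1 mTORC1 gene below 0. The differences between lists were not tested.

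Females and males were compared over both diets. In edgeR 0 members passed an FDR of 0.1, where 0.153% of all genes did. At an unadjusted p under 0.05, 0 members were higher in females and 2 lower, where 8.59% of all genes were higher and 4.96% lower. The 2 were Rpl12 (-0.15 ± 0.07, adjusted p = 0.312 in edgeR) and Rpl22 (-0.12 ± 0.05, adjusted p = 0.331 in edgeR). The median was -0.09, with 61 of 78 below 0, against 0.003 over all genes, of which 7697 of 15660 were below 0. Markers of other cell types lay largely to one side of 0 in the same comparison, although 0 of those given here passed an FDR of 0.1. All 10 markers of cortical excitatory neurons were below 0 in females (median -0.48, 7 at an unadjusted p under 0.05). Above 0 were 12 of 13 striatal markers (median 1.05), all 8 endothelial markers (median 0.26, 6 at an unadjusted p under 0.05) and all 10 microglial markers (median 0.18). Their part in the members' values was not tested. Without KD female E227, 3 members were called as lower in females, Rpl22 (-0.16), Rps3 (-0.24) and Rpl12 (-0.20), which was 3.85% of the members, where 11.7% of all genes were called.

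Members were called between the library series. At an FDR of 0.1 in edgeR, 22 of 78 members differed between the series, 8 higher and 14 lower in series 2. Of all genes tested 33.2% differed, 17.6% higher and 15.6% lower, so that the count of members was not above the background in this fit. The median log2 difference was -0.09, against -0.02 over all genes. The members lower in series 2 included Rps16 (-0.71 ± 0.16, adjusted p = 0.00399 in edgeR), Rpl28 (-0.68 ± 0.21), Rps26 (-0.64 ± 0.21), Rpl24 (-0.34 ± 0.09), Rpl23a (-0.23 ± 0.07) and Rpsa (-0.23 ± 0.07). The members higher in series 2 included Rpl22l1 (0.41 ± 0.10, adjusted p = 0.00535 in edgeR), Rps27l (0.34 ± 0.08, adjusted p = 0.00436 in edgeR), Rps27a (0.25 ± 0.07) and Rps24 (0.24 ± 0.06). Rps27l, with a median of 14.8 CPM in series 1 (12.5 to 16.5) and 18.1 CPM in series 2 (16.4 to 20.7), barely overlapped between the series. Rps16 had a median of 17.9 CPM in series 1 (11.5 to 23.5) and 10.97 CPM in series 2 (4.82 to 13.7). The number called was 13 without CD female E62, 14 without KD male E256 and 33 without KD female E68. These were 16.7%, 17.9% and 42.3% of the members, where 27.5%, 25% and 41.3% of all genes were called. With the median deviation of genes of like GC content removed, 23 members (29.5%) were called, where 25.1% of all genes were. In the main fit all 13 striatal markers (median -0.87) and all 10 microglial markers (median -0.40) were lower in series 2. All 7 nuclear long noncoding RNAs were higher (median 0.34). Their part in the members' values was not tested. What differed between the series other than the library numbers and the depth is not given in the sources used here.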

How the data were processed

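RNA of mouse cortex was extracted with RNeasy kits, and libraries were made with the TruSeq Stranded Total RNA Gold kit and sequenced in pairs on a NovaSeq instrument. The authors aligned reads to mm10 with STAR and deposited its raw gene counts, 1 table per library; the STAR version, gene annotation and strand setting are not given in the sources used here. Library totals were 12207161 to 29109990 counts, and sampling error is therefore small for most members.

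From the counts, edgeR 4.0.16 (R 4.3.3) was used with upper-quartile normalization, its default filter on low counts (15660 of 23413 genes kept) and robust quasi-likelihood tests. The fit had the 4 groups of diet and sex and the library series as terms over all 20 libraries, and p-values were adjusted by Benjamini-Hochberg over all genes at an FDR of 0.1. Log2 CPM used a prior count of 2. Co-variation used residuals from group means. Single genes were also tested by exact permutation of mice within a sex (scipy 1.17.1). GC content and length came from the principal GENCODE M21 transcript of GRCm38. Chi-square comparison of the 41 pairs of libraries within groups gave 6.90 to 109 per degree of freedom, so that no pair within a group was as close as sampling noise; pairs across groups were not compared. The fit was tested on simulated data.

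Members named were those of fixed roles and paralogue pairs, the 5 highest and lowest by level per kb, up to 10 called members per comparison or else the 3 higher and 3 lower of smallest p, and the 3 of highest and lowest r. Others were named after their values were seen, and a few genes that these rules would name are not reported here. The members and gene lists were chosen with earlier results of these data known. Alternatives were TMM and DESeq2 size factors, DESeq2 1.42.0, other filters, RUVg factors rewritten from its description (all but the 5000 most changed genes as controls), each series alone, leaving out each mouse, and removal of the median deviation in 20 bins of transcript GC content, which was chosen after seeing the data.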

Additional observations from a re-analysis of the deposited data

Results flagged for a closer look

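Dixon's test was applied to 116 groups of values of the named members, where chance alone would be expected to mark 5.8, and it marked 2. Rpl12, which sits at the base of the stalk, was low in CD female E249 at 88.7 CPM, with a gap to the next mouse of 0.717 of the range of the 5 CD females on the log2 scale. Rpl22, a large subunit protein, was low in CD male E251 at 104.5 CPM, with a gap of 0.733 of the range of the 5 CD males.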

How the results depend on the processing

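For the 40 single-gene results, 1218 of 1242 values under alternatives kept their direction and their side of the threshold, 7 passed it and 17 changed sign. Members called by diet numbered 1 in females and 6 over both sexes with 2 RUVg factors, and over both sexes 1 by DESeq2's Wald test and 2 in library series 1 alone. Leaving out 1 mouse at a time gave 0 to 1 members by diet in females, 0 to 1 over both sexes, 0 to 3 by sex and 13 to 33 by library series. The median r of member pairs (0.50) was 0.348 with TMM, 0.365 with upper-quartile library sizes, 0.356 with the GC bins removed and 0.733 in series 1 alone, and the median r with the other members (0.82) was 0.714 with the GC bins removed and 0.922 in series 1 alone. Some log2 fold changes changed sign, and the cause was not tested. Without the series term, Rps16 in females was 0.0017. In series 1 alone, females had 0.18 for Rpl39, 0.061 for Rps16 and 0.16 for Rpl15, the interaction 0.22 for Rps27l and both sexes 0.13 for Rps16. In series 2 alone, Rpl31 was -0.057 in males and 0.062 in the interaction, and both sexes had -0.0084 for Rpl10, -0.032 for Rps12 and 0.012 for Rpl22. Leaving out 1 mouse gave -0.16 to 0.037 for Rpl39 and -0.085 to 0.016 for Rpl15 in females, and -0.14 to 0.0026 for Rps16 over both sexes. Each series alone holds 10 libraries, so that fewer mice enter those fits. No paired analysis was possible because the replicate names are animal numbers and no number is shared between groups. Among the tested members named, Rps4y2 had the fewest counts, 1309 over all libraries, and its values are the least precise.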
